A study of Mus musculus with 24 samples.

Results

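Among the genes that the GENCODE mouse annotation of build mm10 names Zfp followed only by digits, 365 are protein-coding, and 268 of these reached 1 FPKM in at least 12 of 24 tumour libraries. FPKM, the deposited unit, scales fragments by transcript length and by library size. These 268 genes, out of 55335 genes in each library, are the expressed Zfp genes described here. The members were chosen by their FPKM in all 24 libraries, so their levels are given as a description without a test. The libraries were made from total RNA of tumours grown in mice from MC38 cells, which derive from a colon carcinoma, or from B16 cells, which derive from a melanoma. Each line was used with its Chek2 gene knocked out (KO) or as the parental cells with intact Chek2 (WT), and the mice received an antibody against the T cell receptor PD-1 or saline (PBS). The 8 groups were MC38 KO anti-PD-1, MC38 KO PBS, MC38 WT anti-PD-1, MC38 WT PBS, B16 KO anti-PD-1, B16 KO PBS, B16 WT anti-PD-1 and B16 WT PBS, with 3 libraries each. The strain and age of the mice and whether a KO line was 1 clone are not given in the sources used here. Separate animals are not stated either, so that the p-values reflect library spread alone, which may be technical.

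Most Zfp genes encode C2H2 zinc finger proteins, in which each finger holds a zinc ion between paired cysteines and histidines and contacts a few bases of DNA. The largest class carries a KRAB domain, which recruits the corepressor Trim28 and, through it, the histone methyltransferase Setdb1. In the mouse many KRAB zinc finger genes lie in clusters that grew by duplication, and well-studied members silence endogenous retroviruses or maintain imprints. Zfp genes outside this class include RNA-binding proteins, activators of transcription and ubiquitin ligases.

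The label was checked against the coding sequences. All but 6 of the 268 members held at least 1 C2H2 pattern (C, 2 to 4 residues, C, 12 residues, H, 3 to 5 residues, H), with a median of 10 and a maximum of 36. A KRAB box pattern was found in 148 members and not in the other 120. The members lay on 20 chromosomes, with 57 on chromosome 7, 37 on chromosome 17, 22 on chromosome 13 and 21 on chromosome 2. Genomic clusters of at least 5 members, with gaps of at most 500 kb, numbered 11 and held 101 members. The longest transcripts of members had a median length of 3527.5 bases, against 3381 bases in the 11215 protein-coding genes under the same level rule, and a median GC content of 43.7%, against 49.5%. Of the members, 45 shared over 25% of the 31-base words of their longest transcript with other genes, so that reads could have been split between copies, and 5 of these (Zfp708, Zfp965, Zfp967, Zfp968 and Zfp969) shared 100%.

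Expressed Zfp genes were low to moderate in level. Their mean over the 24 libraries ran between 0.982 and 29.4 FPKM with a median of 3.38 FPKM, against a median of 7.43 FPKM for protein-coding genes under the same rule. A mean above 10 FPKM was reached by 25 members and 187 stayed below 5 FPKM, while 183 members were at 1 FPKM or more in all 24 libraries. The 8 highest were Zfp706, Zfp106, Zfp207, Zfp91, Zfp131, Zfp445, Zfp146 and Zfp664, and the 4 lowest were Zfp94, Zfp689, Zfp287 and Zfp13. Just inside the threshold, with 12 libraries at 1 FPKM, Zfp239 averaged 2.23, Zfp820 2.00, Zfp978 1.86 and Zfp334 1.49 FPKM. Just outside it, with 11 libraries, Zfp982 averaged 1.13, Zfp947 1.06, Zfp128 1.04 and Zfp712 0.965 FPKM. The other 97 Zfp genes included 61 that reached 1 FPKM in 0 libraries.

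Across the 8 group means on the log2(FPKM + 1) scale, the range of a member had a median of 0.73, against 0.93 for protein-coding genes under the same rule. It exceeded 1 in 78 members and was widest in Zfp985, Zfp239, Zfp978, Zfp52, Zfp979 and Zfp422. The narrowest ranges were those of Zfp689, Zfp628 and Zfp202. The lowest of the 8 groups was B16 KO anti-PD-1 in 133 members. Replicates of a group correlated over the members at 0.914 to 0.966 (Pearson correlation of log2 values, across genes, which are not independent replicates).

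**Figure D1:**
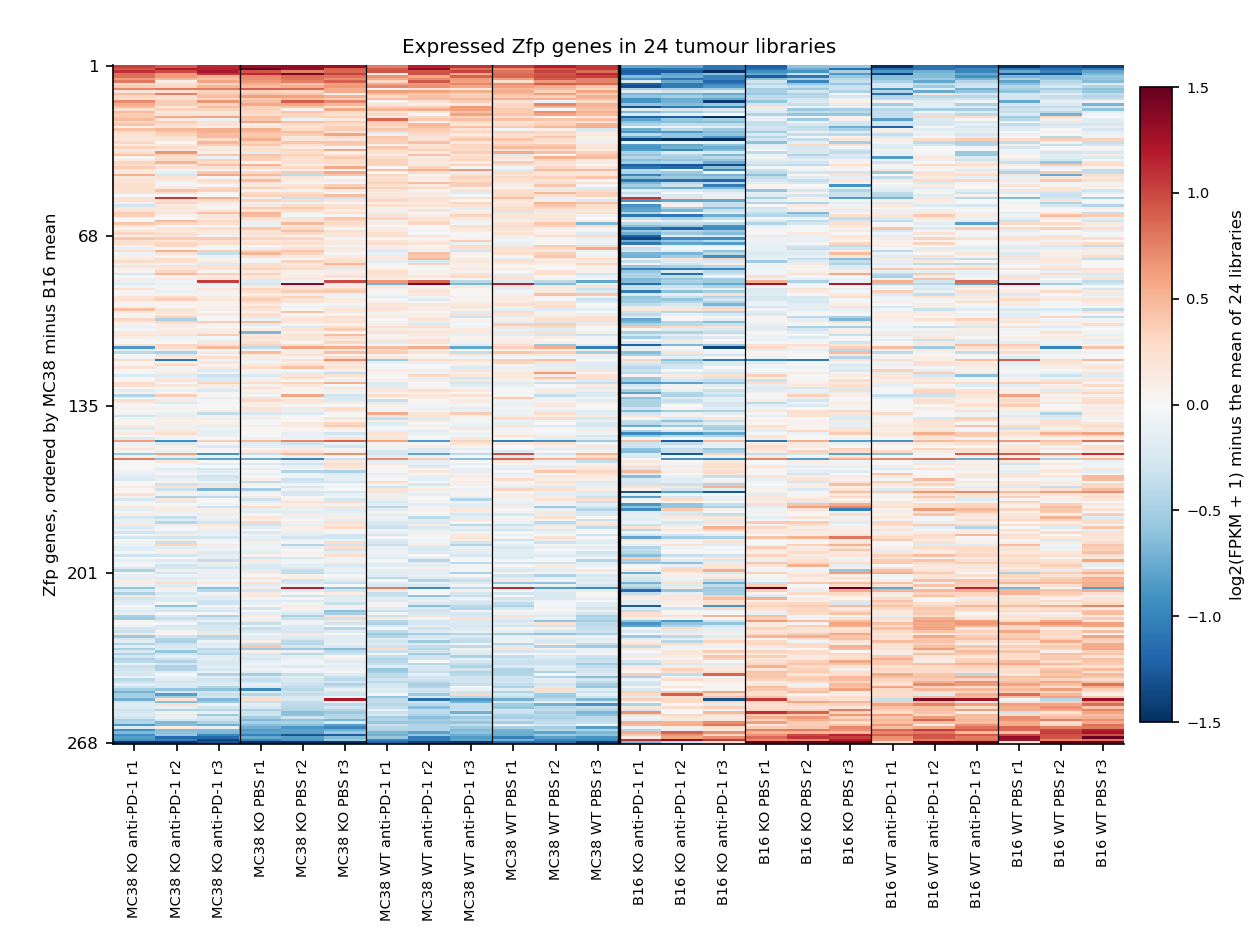
Each row is 1 of the 268 expressed Zfp genes, ordered by MC38 minus B16 mean, each column is 1 library (r1 to r3 are its replicates), and colour is log2(FPKM + 1) minus the gene's mean over 24 libraries. MC38 columns are red at the top and blue at the bottom, B16 columns the reverse, and the 3 columns of B16 KO anti-PD-1 are blue over most of the height.

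The 3 libraries of B16 KO anti-PD-1 stood apart from the other 21. Their deposited FPKM summed to 375193 to 398474, against 310868 to 344059 in the others, and the members made up 0.226% to 0.269% of that sum, against 0.356% to 0.430%. The median member lay at 2.13 to 2.68 FPKM in them and at 3.14 to 3.64 FPKM in the others. Skeletal muscle markers summed to 8.98 to 1759 FPKM in these 3 libraries and to 1.16 to 2.95 FPKM in the other 9 B16 libraries, T cell markers to 9.56 to 34.3 against 0.557 to 9.32 FPKM, macrophage markers to 94.1 to 240.8 against 27.2 to 97.8 FPKM, and melanocyte markers to 4885 to 6285 against 5107 to 6014 FPKM. The ranges of muscle, T cell and macrophage markers in these 3 libraries overlapped those of MC38, though their highest muscle sum lay above every MC38 library. In MC38 muscle markers summed to 3.00 to 427 FPKM, T cell markers to 5.14 to 59.4 FPKM, macrophage markers to 93.0 to 318 FPKM and melanocyte markers to 1.01 to 4.03 FPKM. In MC38 libraries 6 of 7 melanocyte markers never reached 1 FPKM, and among epithelial markers Cldn7 and Krt20 never did. Epithelial markers summed to 1.16 to 48.7 FPKM in MC38, 0.788 to 7.77 FPKM in B16 KO anti-PD-1 and 0.230 to 0.666 FPKM in the other 9 B16 libraries. Chek2 was called lower in KO than in WT in MC38 under PBS (log2 difference -0.99, limma adjusted p = 0.000178) and under anti-PD-1 (-0.61, limma adjusted p = 0.00375), and in B16 under anti-PD-1 (-0.31, limma adjusted p = 0.0154) but not under PBS (-0.37, limma adjusted p = 0.106). In bulk tumour RNA, fewer cells of a type and less RNA per cell cannot be told apart.

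Whether anti-PD-1 treated B16 KO tumours differed from B16 WT tumours under the same antibody was asked first, since among the comparisons within a line the members' median lay farthest from 0 there. Of 265 members tested, 117 were lower and 4 higher in KO, with a median log2 difference of -0.36. Over all 13627 genes tested, 25.9% were lower and 14.9% higher, and the median was -0.05 (-0.02 over protein-coding genes under the level rule). Transcript length and GC content moved with this difference. Among other protein-coding genes the median difference was 0.40 in the shortest sixth of transcripts and -0.53 in the longest. Among members it was -0.20 (20 genes) in the shortest sixth and -0.60 (51 genes) in the longest. By GC content the members' median was -0.49 in the lowest sixth (119 genes) and 0.03 in the highest (33 genes), against -0.32 and 0.20 in other genes. The trends of length and GC were then removed from each library, an alternative chosen after seeing the data. In it 43 members were lower and 8 higher, with a median of -0.15. Of all 11149 genes tested there 2113 were called, 1113 lower and 1000 higher, with a median of -0.007. The share of members called was thus close to that of all genes, and the members' calls differed in leaning lower. When protein-coding genes alone were rescaled to equal sums, the median of all genes moved to -0.23, and 160 members were lower and 0 higher with a median of -0.53. In that setting 45.7% of all 11114 genes tested were called, 4447 lower and 627 higher. In the same comparison 3 of 3 tested muscle markers, 2 of 4 T cell markers and 2 of 8 macrophage markers were higher and 0 lower. The lists held 6 muscle and 10 T cell markers, and those not tested missed the level filter of the fit. Muscle markers summed to only 1.16 to 2.95 FPKM in the other 9 B16 libraries. Those tested thus passed the filter mainly through the 3 B16 KO anti-PD-1 libraries, and their rise is a description. Of 7 melanocyte markers 1 was higher and 3 lower, and the part of other cells in the members' differences was not tested.

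**Figure D2:**
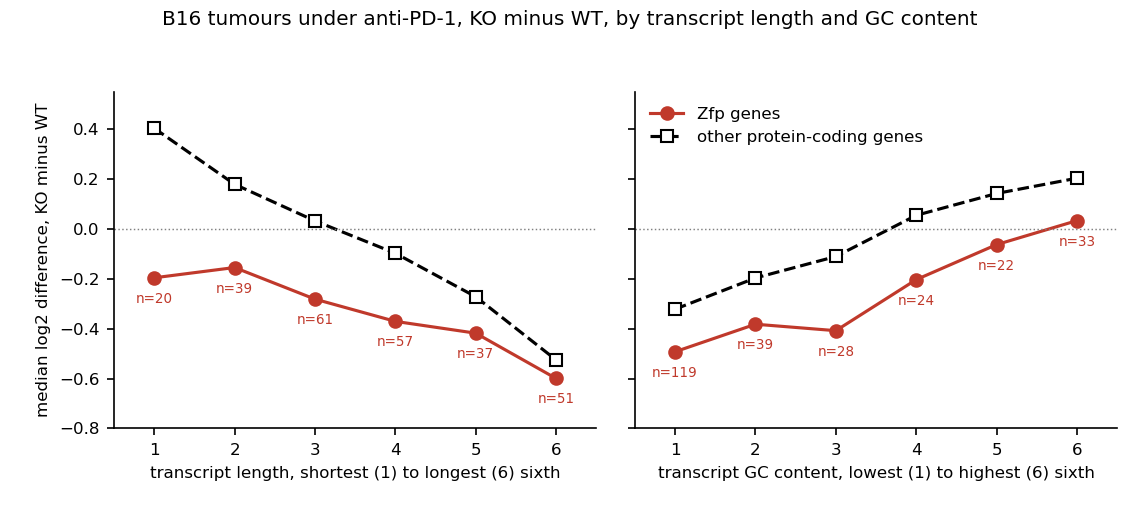
Median log2 difference of FPKM + 1, B16 KO minus WT under anti-PD-1, is plotted for the expressed Zfp genes (filled red circles, with the number of genes) and for other protein-coding genes (open squares) in sixths of transcript length on the left and of GC content on the right. Members lie below other genes in each of the 12 bins, and both lines run between 0.40 and -0.60.

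Among members with a KRAB pattern, 75 of 145 were lower in B16 KO and 0 higher under anti-PD-1, with a median of -0.44. This and the counts that follow stand beside 25.9% of all genes lower and 14.9% higher. Among members without it 42 of 120 were lower and 4 higher, with a median of -0.20. With 13 or more C2H2 patterns 42 of 79 were lower and 0 higher (median -0.46), and with 3 or fewer 10 of 35 were lower and 3 higher (median -0.16). By chromosome, 15 of 20 members were lower on chromosome 2 (median -0.68), 20 of 37 on chromosome 17 (-0.46), 13 of 22 on chromosome 13 (-0.45) and 3 of 13 on chromosome 4 (-0.11), with 0 higher on each of these. Of the related Zbtb genes, which pair zinc fingers with a BTB domain, 15 of 33 were lower and 0 higher (median -0.31). Of 21 genes for KRAB corepressors and heterochromatin proteins, 12 were lower and 0 higher (median -0.44). Trim28 itself was called above 0 in the B16 interaction given further below. All counts by class come from the fit before length and GC trends were removed, and fewer members were called lower after that removal. Differences between these classes were not tested.

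Several members with large falls, Zfp966, Zfp968, Zfp969 and Zfp971 among them, lay on chromosome 2. Zfp966 (ENSMUSG00000089756, chromosome 2, 175918881 to 175931100) had 0.216, 0 and 0.0441 FPKM in the B16 KO anti-PD-1 libraries, against 2.38, 2.85 and 3.16 FPKM in the B16 WT anti-PD-1 libraries. The 2 groups did not overlap, and the log2 difference was -1.80 ± 0.155 (SE, limma adjusted p = 2.43e-05). Zfp971 (ENSMUSG00000074519, chromosome 2, 178023284 to 178034022) had 1.35, 2.29 and 1.35 FPKM in KO and 6.39, 8.05 and 8.46 FPKM in WT, again without overlap, a difference of -1.71 ± 0.164 (limma adjusted p = 4.21e-05). Zfp968 (-1.39) and Zfp969 (-1.48) fell too. Zfp966 shared 93.7% and Zfp971 62.5% of their transcript words with other genes and Zfp968 and Zfp969 100%, so these values may hold reads of each other and are uncertain for any 1 gene. The promoters of Zfp966 and Zfp971 are shown because these genes moved together. They come from the RefSeq promoter table of build GRCm38.p6 (250 bases before to 50 after the start), and capitals mark CCGGAAG, the core of many ETS factor sites, and CCAAT, the NF-Y box, on either strand.

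Zfp966 (chr2:175931051-175931350, minus strand): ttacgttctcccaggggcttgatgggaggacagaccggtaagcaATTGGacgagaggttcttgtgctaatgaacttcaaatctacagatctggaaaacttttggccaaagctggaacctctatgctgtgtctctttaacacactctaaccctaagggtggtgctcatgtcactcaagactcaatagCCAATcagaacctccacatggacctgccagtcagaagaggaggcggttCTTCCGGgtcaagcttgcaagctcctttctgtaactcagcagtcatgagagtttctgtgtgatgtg

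Zfp971 (chr2:178023034-178023333, plus strand): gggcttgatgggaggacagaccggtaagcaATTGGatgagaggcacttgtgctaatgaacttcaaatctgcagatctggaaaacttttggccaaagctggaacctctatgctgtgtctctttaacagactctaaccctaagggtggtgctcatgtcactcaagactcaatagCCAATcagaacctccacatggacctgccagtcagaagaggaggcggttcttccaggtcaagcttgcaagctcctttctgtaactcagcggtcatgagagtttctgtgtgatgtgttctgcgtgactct

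The alignment of the pair was identical in 279 of 314 columns (88.9%). Zfp966 held CCGGAAG once and CCAAT at 2 places, Zfp971 CCAAT at 2 places and CCGGAAG at 0. Over the 220 members with a promoter in the table, 22.7% held CCGGAAG and 52.7% CCAAT, against 12.3% and 38.7% of the 16514 protein-coding promoters of the same length. TATAAA was in 6.36% of member promoters, against 12.9% of all. GGGCGG, the GC box, was in 46.4% against 48.0%, and ACTACAA, a part of the ZNF143 site, in 6.36% against 3.92%. The 16514 promoters were not limited to genes under the level rule, as the members were. A match of letters is a description and does not show a bound site.

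Among KRAB zinc finger genes with known targets, the group of repressors of transposable elements and imprints had 3 of 7 tested members lower in B16 KO under anti-PD-1 and 0 higher, with a median of -0.73. The shares of all genes were 25.9% lower and 14.9% higher, and a difference of so small a group from them was not tested. Zfp809, which silences murine leukaemia virus and related endogenous retroviruses through Trim28, had 1.82, 3.11 and 3.4 FPKM in B16 KO anti-PD-1, against 5.72, 6.19 and 7.91 FPKM in B16 WT anti-PD-1. All 3 KO values lay below all 3 WT values, and the difference was -1.03 ± 0.178 (limma adjusted p = 0.00124). Zfp445, which helps to maintain imprints, had 9.73, 12.1 and 14.4 FPKM in KO and 21, 22.9 and 23.6 FPKM in WT, without overlap, a difference of -0.86 ± 0.132 (limma adjusted p = 0.000591). Zfp568, which represses a placental Igf2 transcript, had 0.819, 1.06 and 0.975 FPKM in KO and 3.18, 1.34 and 4.20 FPKM in WT, a difference of -0.93 (limma adjusted p = 0.0267). That call was lost in 4 of the 12 fits that left out 1 library, with adjusted p up to 0.107. Zfp57, the other keeper of imprints, lay at 0.531 to 0.810 FPKM in KO and 0.648 to 1.29 FPKM in WT, and the groups overlapped (limma adjusted p = 0.146). Zfp932, Zfp708 and Zfp961 did not pass the test.

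Zfp382, a KRAB zinc finger gene on chromosome 7, had 0.886, 0.886 and 0.534 FPKM in B16 KO anti-PD-1 and 2.44, 4.47 and 4.23 FPKM in B16 WT anti-PD-1, a difference of -1.39 ± 0.216 without overlap (limma adjusted p = 0.000635). Zfp292, a large zinc finger protein with a transcript of 9986 bases, had 3.23, 4.03 and 4.28 FPKM in KO and 8.22, 8.52 and 8.28 FPKM in WT, a difference of -0.95 ± 0.0991 without overlap (limma adjusted p = 6.23e-05). With length and GC trends removed Zfp292 no longer passed (limma adjusted p = 0.251), while Zfp966, Zfp971, Zfp382, Zfp809 and Zfp445 stayed called. The largest difference by value was that of Zfp422, which had 1.96, 2.70 and 4.47 FPKM in KO and 4.66, 25.4 and 28.7 FPKM in WT (-2.07, limma adjusted p = 0.0319). Its WT libraries did not lie close together, and its call was lost in 4 of 12 fits that left out 1 library.

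Of 8 members that act on RNA or ribosomes, 2 were lower and 1 higher in B16 KO under anti-PD-1, shares near those of all genes (25.9% lower and 14.9% higher). Zfp207, a spindle and kinetochore protein, had 17.6, 19.6 and 19 FPKM in KO and 28.9, 31.3 and 34.5 FPKM in WT, a difference of -0.72 ± 0.088 (limma adjusted p = 0.000155). Zfp106, an RNA-binding protein, had 17.2, 19 and 19.7 FPKM in KO and 28.9, 28.7 and 32.7 FPKM in WT, a difference of -0.66 (limma adjusted p = 0.000127), and with length and GC trends removed it no longer passed (limma adjusted p = 0.771). Neither gene overlapped between the groups. Zfp622, a factor of 60S ribosome maturation, had 7.11, 6.39 and 6.83 FPKM in KO and 5.71, 4.41 and 5.06 FPKM in WT, a difference of 0.36 (limma adjusted p = 0.0185). Its call was lost when WT replicate 2 (adjusted p = 0.0695) or KO replicate 1 (adjusted p = 0.0579) of the anti-PD-1 groups was left out.

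Of 6 activators and architectural factors, 4 were lower and 0 higher, beside 25.9% and 14.9% of all genes. Zfp281, a regulator of embryonic stem cells, had 8.61, 9.03 and 7.02 FPKM in B16 KO anti-PD-1 and 14.2, 13.5 and 13.3 FPKM in B16 WT anti-PD-1, a difference of -0.68 without overlap (limma adjusted p = 0.00049). It missed the threshold with length and GC trends removed (limma adjusted p = 0.0573). Zfp410, the activator of Chd4, fell by 0.39 (limma adjusted p = 0.0107). Zfp148 (-0.94) and Zfp143 (-0.36), an activator at many promoters, were called but lost the call in 2 and 4 of the 12 fits that left out 1 library, with adjusted p up to 0.0598 and 0.0983. Zfp384 and Zfp335 did not pass.

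Among 5 regulators of lineage and growth, Zfp516, a factor of brown fat, had 3.76, 3.61 and 5.52 FPKM in KO and 8.28, 7.66 and 8.13 FPKM in WT (-0.79, limma adjusted p = 0.000603), and Zfp217, the mouse counterpart of a human breast cancer oncogene, had 4.67, 5.07 and 5.24 FPKM in KO and 7.33, 8.03 and 7.56 FPKM in WT (-0.53, limma adjusted p = 0.000818). Neither overlapped between the groups. With length and GC trends removed Zfp217 missed the threshold (limma adjusted p = 0.0559). Among 6 members tied to DNA damage, SUMO or ubiquitin, Zfp91, a ubiquitin ligase, was the 1 that fell, with 11.6, 13 and 12.7 FPKM in KO and 16.9, 17.7 and 18.4 FPKM in WT (-0.47, limma adjusted p = 0.00171). It did not pass with length and GC trends removed (limma adjusted p = 0.222). The other 5, Zfp365, Zfp830, Zfp668, Zfp451 and Zfp827, did not pass in this B16 comparison, in which 25.9% of all genes were lower and 14.9% higher.

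The members higher in B16 KO under anti-PD-1 were Zfp771, Zfp511, Zfp622 and Zfp706. Zfp771 had 6.52, 5.98 and 5.65 FPKM in KO and 4.33, 3.54 and 3.87 FPKM in WT, a difference of 0.52 ± 0.126 without overlap (limma adjusted p = 0.00749). Zfp706, a short protein that promotes differentiation of mouse embryonic stem cells, had 29.7, 33.5 and 29.5 FPKM in KO and 26.1, 22.9 and 26.2 FPKM in WT, a difference of 0.29 (limma adjusted p = 0.0127). Each of the 4 calls was lost when protein-coding genes alone were rescaled, and those of Zfp771 and Zfp511 also with length and GC trends removed.

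**Figure D3:**
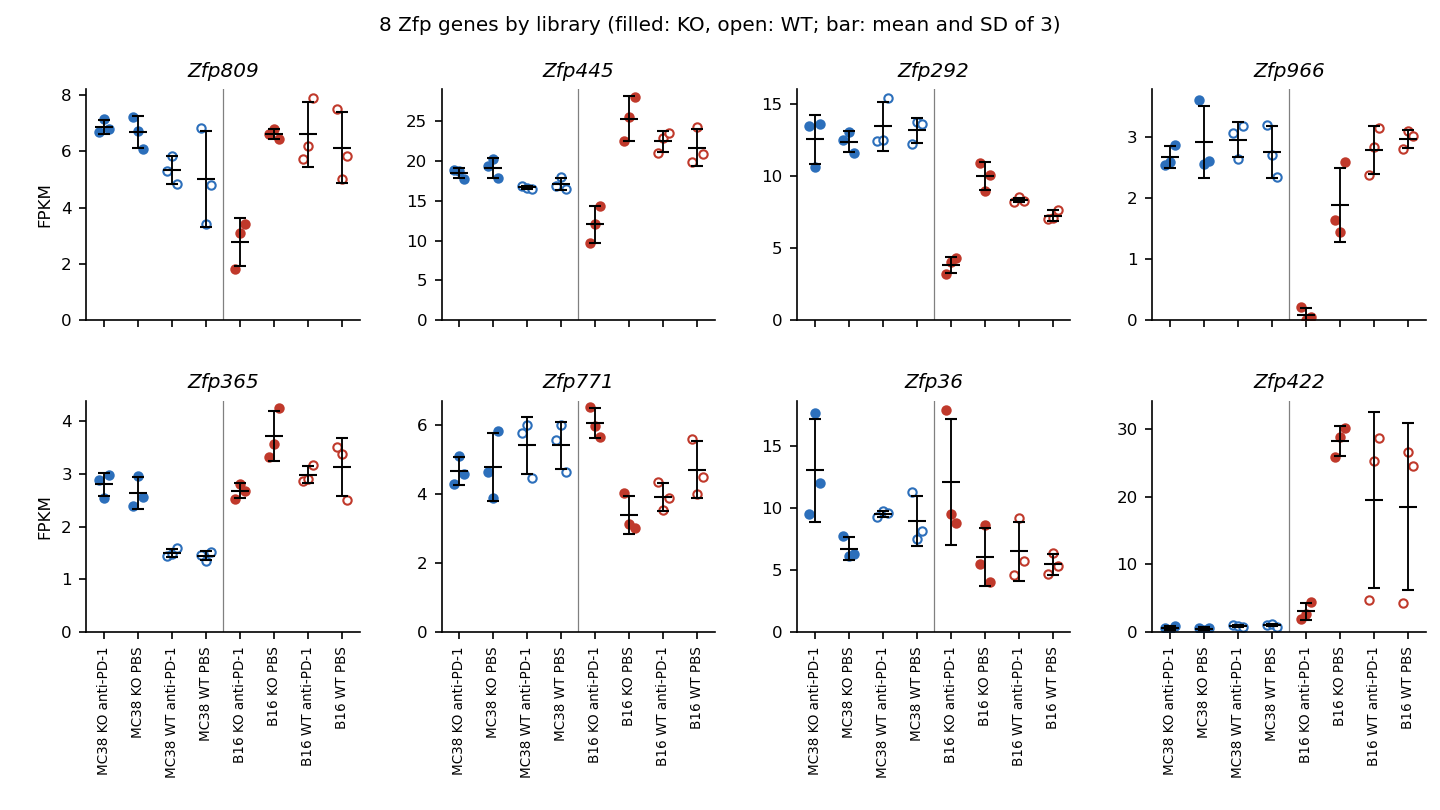
FPKM of 8 expressed Zfp genes is plotted by group, blue for MC38 and red for B16, filled for KO and open for WT, 1 point per library, with bars for mean and SD of 3 libraries. Zfp809, Zfp445, Zfp292 and Zfp966 are lowest in B16 KO anti-PD-1, Zfp365 is higher in MC38 KO than in MC38 WT, and Zfp422 ranges between 0.273 and 30.2 FPKM.

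The same B16 KO anti-PD-1 libraries were next set against B16 KO tumours given PBS, so that this comparison shares 3 libraries with the one above. Of 265 members 104 were lower and 7 higher under anti-PD-1, with a median of -0.30. Over all genes 43.9% were called, 25% lower and 18.9% higher, with a median of -0.03. With length and GC trends removed 51 were lower and 10 higher, beside 22.6% of all genes called. Zfp292 had 3.23, 4.03 and 4.28 FPKM under anti-PD-1, against 10.9, 8.96 and 10.1 FPKM under PBS (-1.18 ± 0.0991, limma adjusted p = 2.44e-05). Zfp445 had 22.5, 25.6 and 28.0 FPKM in B16 KO PBS and so differed by -1.02 ± 0.132 (limma adjusted p = 0.000225), and Zfp809, with 6.61, 6.81 and 6.44 FPKM in B16 KO PBS, by -1.04 ± 0.178 (limma adjusted p = 0.00114). None of the 3 genes overlapped between the groups. Zfp771 was higher, with 6.52, 5.98 and 5.65 FPKM under anti-PD-1 and 4.03, 3.12 and 3.02 FPKM under PBS (0.69 ± 0.126, limma adjusted p = 0.00162). Zfp36, which encodes tristetraprolin and speeds the decay of AU-rich mRNAs, had 17.9, 9.52 and 8.81 FPKM under anti-PD-1 and 5.43, 8.65 and 4.01 FPKM under PBS (0.88 ± 0.303, limma adjusted p = 0.0354). The Zfp36 groups did not overlap, yet the call was lost in 3 of the 12 fits that left out 1 library, with adjusted p up to 0.138 over all alternatives. T cell and macrophage markers were higher in the same libraries, as given above, and their part was not tested.

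In B16 tumours under PBS, KO against WT gave 0 called members of 265 with limma, with 30 at an unadjusted p under 0.05, beside 0.47% of all genes called (0.279% higher and 0.191% lower). The median member differed by -0.08 (all genes -0.05), and 182 of the 265 were below 0. The fit of all 24 libraries called 4 members and the fit of the 6 libraries alone called 1. Zfp292 had 10.9, 8.96 and 10.1 FPKM in B16 KO PBS and 6.99, 7.09 and 7.67 FPKM in B16 WT PBS, a difference of 0.41 that did not pass (limma adjusted p = 0.113) although the groups did not overlap. Anti-PD-1 against PBS in B16 WT tumours also gave 0 called members with limma, 3 at an unadjusted p under 0.05, and 0% of all genes called. The KO effect in B16 averaged over treatments used the same libraries: 95 members were lower and 5 higher (all genes 19% and 7.54%), and 32 and 6 with length and GC trends removed, beside 13.4% of all genes called.

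The difference between these effects was itself tested. The interaction in B16, the KO effect under anti-PD-1 minus that under PBS, was called below 0 in 56 members and above 0 in 1, Zfp771, beside 14.6% and 8.9% of all genes, with a median of -0.26 (all genes -0.02). With length and GC trends removed 17 were below and 3 above, beside 4.89% of all genes called. Zfp292 (-1.36 ± 0.14, limma adjusted p = 0.000407), Zfp966 (-1.33 ± 0.219, limma adjusted p = 0.00281), Zfp445 (-1.08 ± 0.187, limma adjusted p = 0.00349) and Zfp809 (-1.14 ± 0.252, limma adjusted p = 0.01) were among the members below 0. Outside the members, Trim28 was above 0 (0.49 ± 0.107, limma adjusted p = 0.00934) and Setdb1 was not called (-0.34, limma adjusted p = 0.0629). Atrx (-1.20) and Cbx5 (-0.91) were among the heterochromatin genes called below 0.

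**Figure D4:**
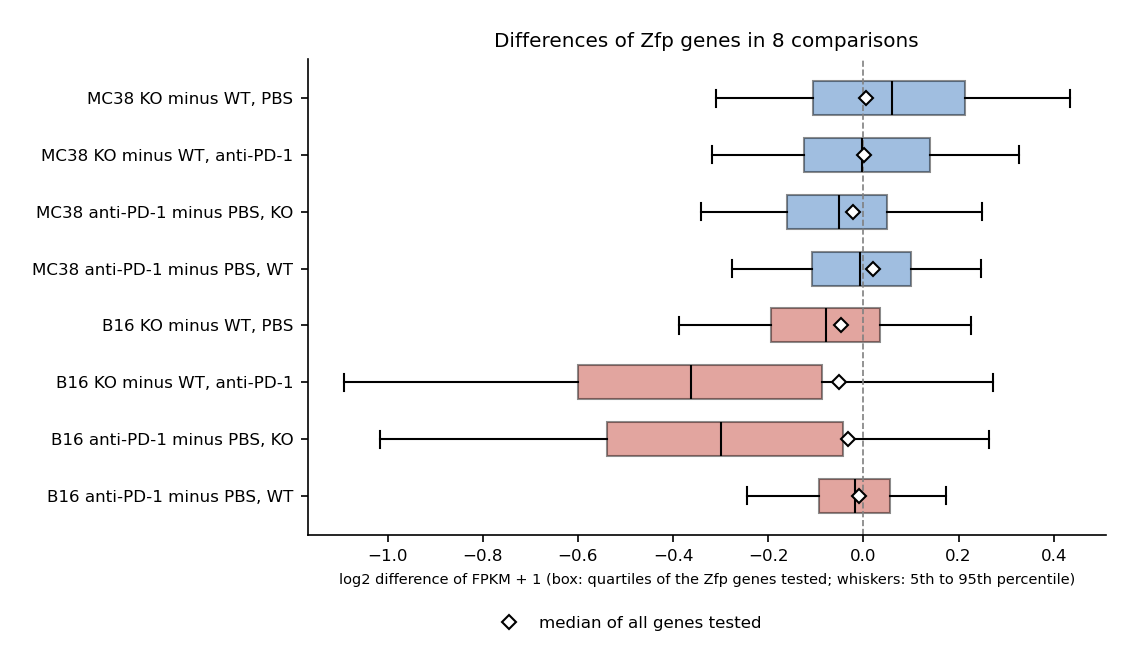
Boxes give the quartiles and whiskers the 5th to 95th percentile of the log2 differences of the expressed Zfp genes tested in 8 comparisons, blue for MC38 and red for B16, and white diamonds the median of all genes tested. The boxes of both comparisons that hold B16 KO anti-PD-1 lie left of 0, with medians of -0.36 and -0.30, and the other 6 are centred within 0.08 of 0.

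In MC38 tumours the same question of KO against WT was asked under each treatment. KO against WT under PBS called 22 of 264 members higher and 7 lower, beside 11.9% and 11.6% (23.4% together) of all 14209 genes, with a median of 0.06 (all genes 0.01). Rescaling protein-coding genes gave 38 higher and 6 lower, beside 1847 and 1239 of all 11633 genes. Leaving out WT PBS replicate 2 gave 15 calls and leaving out KO PBS replicate 2 gave 17. Under anti-PD-1 KO against WT called 7 higher and 10 lower, beside 5.01% and 7.05% of all genes, with a median of 0.00. The split was 5 and 13 after quantile normalization, 6 and 14 after rescaling and 14 and 11 with length and GC trends removed. Over all genes these splits were 727 and 1080 of 14209, 596 and 935 of 11633, and 865 and 1014 of 11598. Leaving out 1 of the 3 KO libraries under anti-PD-1 turned the 17 calls into 4 (replicate 1), 7 (replicate 2) or 5 (replicate 3). Leaving out 1 of the 3 WT libraries under anti-PD-1 turned them into 4 (replicate 1), 11 (replicate 2) or 4 (replicate 3), and leaving out replicate 2 of either PBS group into 11. T cell markers summed to 5.14 to 8.30 FPKM in MC38 KO PBS and 36.8 to 51.9 FPKM in MC38 WT PBS, and to 37.6 to 59.4 FPKM in MC38 KO anti-PD-1 and 42.9 to 46.8 FPKM in MC38 WT anti-PD-1, with 8 of 9 tested T cell markers called lower in KO under PBS. Macrophage markers summed to 93.0 to 197 FPKM in MC38 KO PBS and 206 to 241 FPKM in MC38 WT PBS, and to 265 to 318 FPKM in MC38 KO anti-PD-1 and 220 to 225 FPKM in MC38 WT anti-PD-1. The part of both cell types in these calls was not tested.

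Zfp365, whose human counterpart ZNF365 is known for genome stability at stalled replication forks, was higher in MC38 KO under both treatments. It had 2.88, 2.55 and 2.97 FPKM in KO and 1.44, 1.47 and 1.59 FPKM in WT under anti-PD-1, and 2.39, 2.96 and 2.57 FPKM in KO and 1.47, 1.35 and 1.52 FPKM in WT under PBS. The 6 KO libraries lay above the 6 WT libraries, with differences of 0.60 ± 0.0886 under anti-PD-1 (limma adjusted p = 0.00249) and 0.57 ± 0.0886 under PBS (limma adjusted p = 0.00164). In B16 it had 3.33, 3.57 and 4.24 FPKM in KO PBS and 3.5, 3.39 and 2.51 FPKM in WT PBS, which overlapped. Its call held in every alternative tried in both MC38 comparisons, with adjusted p up to 0.0156.

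Under PBS the other MC38 rises that held in every alternative included Zfp609 and Zfp598. Zfp609, which works with the cohesin loader Nipbl and the Integrator complex, had 11.3, 11.9 and 13.9 FPKM in KO and 8.06, 7.13 and 7.04 FPKM in WT (0.66 ± 0.114, limma adjusted p = 0.00267). Zfp598, a ubiquitin ligase that senses collided ribosomes, had 17.3, 17.8 and 21.6 FPKM in KO and 13.5, 12.8 and 12.2 FPKM in WT (0.52 ± 0.102, limma adjusted p = 0.00531). Zfp317, a KRAB zinc finger gene, had 7.59, 6.55 and 7.89 FPKM in KO and 5.43, 4.17 and 4.49 FPKM in WT (0.55 ± 0.105, limma adjusted p = 0.00456). In each of the 3 genes all KO values lay above all WT values. Zfp580 was the fall that held, with 1.06, 1.07 and 0.802 FPKM in KO and 1.99, 1.6 and 2.12 FPKM in WT (-0.55 ± 0.111, limma adjusted p = 0.00578). The calls of Zfp46 (1.5), Zfp131 (0.55), Zfp740 (-1.32), Zfp937 (-0.63), Zfp414 (-0.56), Zfp273 (-0.35) and Zfp654 (-0.31) were each lost in 3 to 9 of the 12 fits that left out 1 library. Zfp668 (0.32) and Zfp384 (0.30), named above by role, were also called higher, and both calls were lost in some of those fits.

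Zfp740 and Zfp46 illustrate members with values at separate levels inside a group. Zfp740 had 5.14, 4.20 and 7.32 FPKM in MC38 KO PBS and 17.8, 14 and 13.7 FPKM in MC38 WT PBS, yet 16.7, 5.83 and 5 FPKM in MC38 KO anti-PD-1 and 16, 12.5 and 5.70 FPKM in MC38 WT anti-PD-1. Zfp46 had 3.32, 0.480 and 2.62 FPKM in MC38 KO anti-PD-1 and 3.27, 0.568 and 2.57 FPKM in MC38 WT anti-PD-1. A spread of at least 3-fold within a group occurred in 22 members in 1 or more groups and in 13 members in 2 or more, and Zfp740, Zfp46, Zfp422 and Zfp568 showed it. These are library-to-library differences that the labels do not explain.

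Under anti-PD-1 the largest MC38 rises were those of Zfp992, Zfp365 and Zfp991. Zfp992 had 4.09, 4.31 and 4.29 FPKM in KO and 2.21, 2.59 and 2.48 FPKM in WT (0.61 ± 0.0995, limma adjusted p = 0.00388), and Zfp991 had 8.28, 10.1 and 8.80 FPKM in KO and 5.49, 6.30 and 5.26 FPKM in WT (0.59 ± 0.111, limma adjusted p = 0.00761). Neither overlapped, and both calls held in every alternative. Among the remaining calls, Zfp871 (0.34), Zfp691 (0.33), Zfp839 (0.31), Zfp438 (-0.55), Zfp931 (-0.51), Zfp395 (-0.39), Zfp934 (-0.35) and Zfp654 (-0.34) were lost in 3 to 10 of the 12 fits that left out 1 library. Zfp449 (-0.36, limma adjusted p = 0.0145) was lost without WT anti-PD-1 replicate 3 (adjusted p = 0.0529). Named above by role, Zfp622 (-0.32), Zfp451 (-0.27) and Zfp91 (-0.19) were also called lower in MC38 KO under anti-PD-1. Each of these calls was lost when any 1 library of the 2 anti-PD-1 groups was left out.

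Called under both treatments in MC38 were Zfp110, Zfp365, Zfp871 and Zfp992 (higher in KO) and Zfp449 and Zfp654 (lower), beside 3.05% and 3.57% of all genes called higher and lower in both. Zfp110, a KRAB zinc finger protein, had 12.5, 12.5 and 13 FPKM in KO and 10.5, 10.4 and 11.4 FPKM in WT under anti-PD-1, and 13.3, 13 and 13.1 FPKM in KO and 11, 10.8 and 10.3 FPKM in WT under PBS, without overlap under either treatment. Its call held in every alternative under PBS and was lost in 6 of 12 fits with 1 library left out under anti-PD-1. The PBS call of Zfp871 was lost in 11 of those 12 fits (adjusted p up to 0.148), that of Zfp992 in 4 (up to 0.0985) and those of Zfp449 and Zfp654 in 3 each (up to 0.0784 and 0.0886). In B16 0 members were called in both treatments with limma, beside 0.183% (higher) and 0.0587% (lower) of all genes. Averaged over treatments, 31 members were higher and 24 lower in MC38 KO, beside 13.4% and 14% (27.4% together) of all genes. After rescaling 41 members were higher and 19 lower, beside 1812 and 1553 of all 11633 genes. Without WT PBS replicate 2 the 55 calls became 36. The averaged rises of Zfp365 (0.59 ± 0.0626, limma adjusted p = 0.000108), Zfp609 (0.51), Zfp992 (0.48), Zfp131 (0.46), Zfp991 (0.40) and Zfp597 (0.40) and the falls of Zfp937 and Zfp580 (both -0.46) held in every alternative.

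Anti-PD-1 against PBS in MC38 KO tumours, a comparison that shares its libraries with those above, called 3 members higher and 4 lower, beside 6.12% and 2.86% (8.99% together) of all genes. Zfp677 had 1.24, 1.84 and 1.33 FPKM under anti-PD-1 and 0.549, 0.414 and 0.305 FPKM under PBS, without overlap (0.79 ± 0.139, limma adjusted p = 0.00626). Zfp362 had 5.71, 5.87 and 5.73 FPKM under anti-PD-1 and 7.6, 7.6 and 8.45 FPKM under PBS, without overlap (-0.39 ± 0.0705, limma adjusted p = 0.00692). Zfp36 had 9.48, 17.6 and 12 FPKM under anti-PD-1 and 7.76, 6.12 and 6.25 FPKM under PBS (0.83 ± 0.193, limma adjusted p = 0.023), a call lost in 4 of 12 fits with 1 library left out. The other calls, Zfp472, Zfp777, Zfp507 and Zfp9, were lost in 3 to 10 of those fits. Leaving out 1 KO library under anti-PD-1 turned the 7 calls into 3 (replicate 1), 1 (replicate 2) or 2 (replicate 3), and leaving out 1 KO library under PBS into 4 (replicate 2) or 2 (replicate 3). They became 4 when replicate 1 of WT PBS, or replicate 1 or 3 of WT under the antibody, was left out. The split was 2 higher and 7 lower after rescaling, beside 803 and 522 of all 11633 genes. T cell markers summed to 37.6 to 59.4 FPKM under anti-PD-1 and 5.14 to 8.30 FPKM under PBS, and macrophage markers to 265 to 318 FPKM under anti-PD-1 and 93.0 to 197 FPKM under PBS, and the part of these cells was not tested. In MC38 WT tumours anti-PD-1 gave 0 called members with limma (24 at an unadjusted p under 0.05, and 0% of all genes), and the MC38 interaction gave 0 (26 at an unadjusted p under 0.05, and 2.44% of all genes, 1.81% above and 0.626% below 0).

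Between the lines, most members differed, as most genes did. Of 268 members 107 were higher and 86 lower in MC38 than in B16, averaged over the 4 conditions, beside 43.5% and 36.2% (79.6% together) of all 15655 genes, and the median difference was 0.04 (all genes 0.07). The split was 80 and 119 after quantile normalization, 76 and 112 with length and GC trends removed, and 76 and 103 with the B16 KO anti-PD-1 libraries left out. Over all genes these splits were 6146 and 6365 of 15655, 5198 and 5081 of 12374, and 6333 and 5704 of 15476. The level rule bears on this comparison: 3 members reached 1 FPKM in at most 2 B16 libraries and 4 in at most 2 MC38 libraries, so these 7 had to differ and are given as a description.

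A cluster of 8 KRAB members on chromosome 4 (146449023 to 147848366), made up of Zfp992, Zfp993, Zfp991, Zfp978, Zfp985, Zfp979, Zfp984 and Zfp933, had 7 members higher and 1 lower in MC38, with a median difference of 0.96. The shares of all genes were 43.5% higher and 36.2% lower. Zfp979 (chromosome 4, 147611937 to 147642513) ran between 4.99 and 7.86 FPKM with a median of 6.58 FPKM in the 12 MC38 libraries and between 0.132 and 1.33 FPKM with a median of 0.571 FPKM in the 12 B16 libraries (2.22 ± 0.079, limma adjusted p = 1.17e-15). Zfp978 lay at 2.61 to 5.46 FPKM in MC38 and 0 to 0.312 FPKM in B16, and Zfp985 at 1.89 to 6.21 FPKM in MC38 and 0.0449 to 1.18 FPKM in B16, without overlap. Both reached 1 FPKM in at most 2 B16 libraries and so had to differ under the level rule. Zfp979 met that rule through its 12 MC38 libraries alone, so its difference is given as a description too. The median member of the cluster shared 59.0% of its transcript words with other genes. The promoters of Zfp979 and Zfp985 are shown, from the same table and with the same capitals, because the pair was high in 1 line.

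Zfp979 (chr4:147642459-147642758, minus strand): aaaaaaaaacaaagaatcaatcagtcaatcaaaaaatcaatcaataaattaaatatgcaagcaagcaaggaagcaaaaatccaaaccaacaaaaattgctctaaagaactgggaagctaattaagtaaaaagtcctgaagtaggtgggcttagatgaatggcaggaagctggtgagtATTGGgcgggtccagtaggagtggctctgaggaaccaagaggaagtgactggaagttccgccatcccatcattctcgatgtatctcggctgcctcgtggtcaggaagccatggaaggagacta

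Zfp985 (chr4:147553027-147553326, plus strand): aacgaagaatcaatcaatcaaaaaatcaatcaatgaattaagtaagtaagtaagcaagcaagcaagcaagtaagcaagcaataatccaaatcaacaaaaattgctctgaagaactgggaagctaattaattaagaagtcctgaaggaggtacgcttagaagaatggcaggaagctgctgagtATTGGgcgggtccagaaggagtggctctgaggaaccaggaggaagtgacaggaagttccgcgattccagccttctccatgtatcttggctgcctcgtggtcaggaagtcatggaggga

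The alignment of this pair was identical in 257 of 316 columns (81.3%). Each held CCAAT once and CCGGAAG at 0 places. Zfp966 and Zfp979 were identical in 45.8% of aligned columns.

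On chromosome 17, Zfp52 had 16.3 to 22.6 FPKM with a median of 18.6 FPKM in MC38 and 2.58 to 6.2 FPKM with a median of 4.44 FPKM in B16 (1.90 ± 0.055, limma adjusted p = 5.06e-17), and its neighbours Zfp53 (1.56) and Zfp948 (1.34) were higher in MC38 too. In the same cluster Zfp820 (-1.65) and Zfp13 (-1.40) were lower, and these, like Zfp239, reached 1 FPKM in at most 2 MC38 libraries and so had to differ under the level rule. The largest differences below 0 were those of Zfp422 (-2.95), Zfp637 (-1.85) and Zfp239 (-1.76), with Zfp704 (-1.28) after Zfp13. Zfp637 had 2.39 to 4.99 FPKM in MC38 and 12.9 to 21.1 FPKM in B16, and Zfp422 0.273 to 1.10 FPKM in MC38 and 1.96 to 30.2 FPKM in B16. Zfp422 met the level rule through its B16 libraries alone, so its difference is given as a description. On chromosome 4 12 of 15 members were higher in MC38 and 1 lower, and on chromosome 6 3 of 16 were higher and 11 lower. Of all genes 43.5% were higher and 36.2% lower. The chromosome 4 count includes Zfp978 and Zfp985, which had to differ under the level rule, and differences between chromosomes were not tested.

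By role, 2 of 7 repressors of transposable elements and imprints were higher in MC38, Zfp932 (0.66, limma adjusted p = 8.34e-06) and Zfp57 (0.52, limma adjusted p = 4.08e-06), and 1 was lower. That 1, Zfp445 (-0.13), lost the call in 4 of 24 fits that left out 1 library. Of the RNA and ribosome group 4 of 8 were higher, including Zfp622 (0.88, limma adjusted p = 1.23e-12), and 2 lower, Zfp326 (-0.49), which links transcription to splicing, and Zfp346 (-0.68), which binds double-stranded RNA. Beside the counts of both groups, 43.5% of all genes were higher and 36.2% lower. Zfp91 had 26.7 to 32.9 FPKM in MC38 and 11.6 to 21.6 FPKM in B16 (0.83, limma adjusted p = 9.41e-15). Zfp703, a growth regulator, had 6.36 to 12 FPKM in MC38 and 2.02 to 4.86 FPKM in B16 (1.22, limma adjusted p = 7.3e-09). Lower in MC38 were Zfp830 (-0.79) and Zfp467 (-0.79). Zfp706, the member with the highest mean, had 27.2 to 34.5 FPKM in MC38 and 22.9 to 33.5 FPKM in B16 (0.15, limma adjusted p = 0.000337). The lines overlapped, and the call was lost with length and GC trends removed (limma adjusted p = 0.685).

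**Figure D5:**
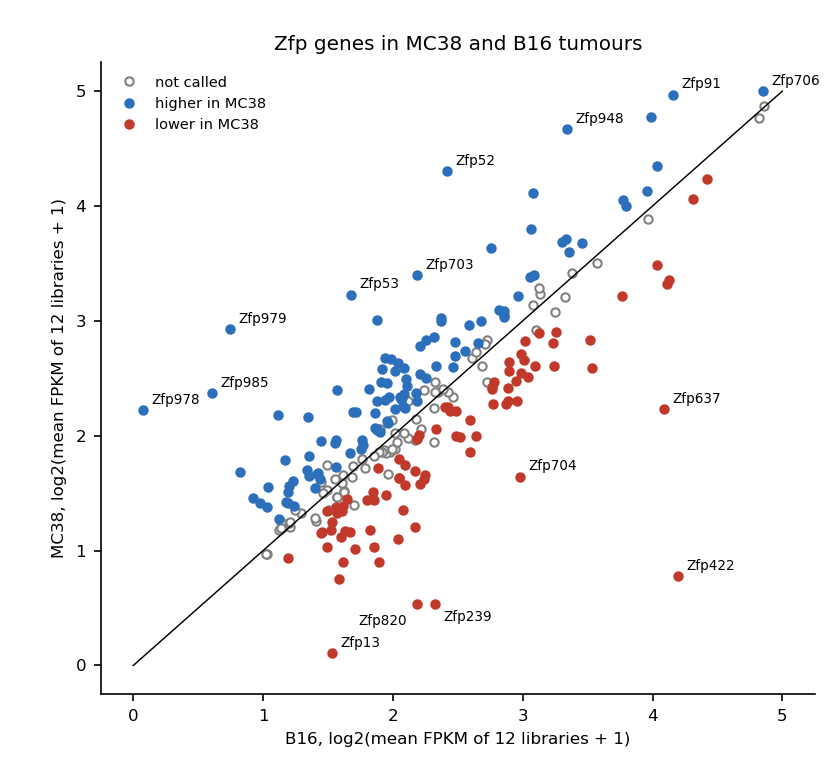
Each point is 1 of the 268 expressed Zfp genes, at log2(mean FPKM + 1) of the 12 B16 libraries on the x axis and of the 12 MC38 libraries on the y axis, blue where called higher and red where called lower in MC38, and the line marks equal levels. The chromosome 4 genes Zfp978, Zfp979 and Zfp985 lie far above the line and Zfp422, Zfp637 and Zfp13 far below it.

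The KO effect, averaged over treatments, was compared between the lines in 1 fit of all 24 libraries. It was more positive in MC38 than in B16 in 92 members and more negative in 6, beside 19.7% and 11.6% of all genes, with a median of 0.22 (all genes 0.05). With length and GC trends removed the split was 58 and 12, beside 26.3% of all genes called. Without the 3 B16 KO anti-PD-1 libraries, and so under PBS alone, 19 and 2 members were called, beside 11.1% of all genes. Still called were Zfp609, Zfp871 and Zfp760, whose KO effects differed between the lines by 1.03, 1.06 and 1.00 with all 24 libraries. The KO effect of Zfp365 differed by 0.55 ± 0.0961 (limma adjusted p = 0.000289) with all libraries and was not called under PBS alone (limma adjusted p = 0.0954). The KO effect of Zfp809 differed by 0.81 (limma adjusted p = 0.00203) with all libraries and was not called under PBS alone either (limma adjusted p = 0.481).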

How the data were processed

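Each of 24 tumour RNA libraries came as 1 table of 55335 genes. The FPKM values are those the authors deposited, the unit being read from the values, and per the submitters' processing notes FastQC, STAR 2.5, Cuffnorm and DESeq were used with build mm10, in roles and with settings not given in the sources used here. The tables hold no counts, so no count-based interval was computed. Members and gene lists were chosen with earlier results of these data known.

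Differences were tested on log2(FPKM + 1) with limma 3.58.1 (R 4.3.3, empirical Bayes with a trend), in 1 fit of 12 libraries per line or of 24 for both lines, over genes at 1 FPKM or more in at least 3 libraries, with Benjamini-Hochberg adjustment over all genes tested in each of 14 comparisons and calls at an adjusted p under 0.05. A pseudocount of 1 understates the change of low genes. The fit was tested on simulated data with 67 genes changed 1.5-fold, 67 changed 2-fold and 66 changed 4-fold in each comparison. Of those changed 1.5-fold, 49.3% were recovered in the simulated MC38 PBS comparison (14209 genes) and 43.3% in the simulated B16 PBS comparison (13627 genes). Of those changed 2-fold, 85.1% were recovered in MC38 and 71.6% in B16. False calls were 7 of 162 in MC38 and 7 of 148 in B16. In the real MC38 PBS comparison 23.4% of genes were called, a larger share than the simulation changed, so its recovery rates may not hold there. Genes named are the 8 highest and 4 lowest in mean, the 6 largest called rises and falls of each comparison, the members of 5 role lists, those called in both treatments, the widest and narrowest ranges and those beside the threshold. Zfp760 was added after its values were seen. Transcript features came from GENCODE sequences and promoters from RefSeq, with 48 members not matched. Alternatives were a pseudocount of 0.1, no filter, quantile normalization, rescaling of protein-coding genes, no trend, fits of all 24 or of the 6 libraries compared, leaving out each library, and, added after seeing the data, removal of length and GC trends (lowess, span 0.3) and leaving out B16 KO anti-PD-1. Tables were made with Python 3.11.15 and pandas 2.3.3.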

Additional observations from a re-analysis of the deposited data

Results flagged for a closer look

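In B16, the KO effect under anti-PD-1 differed from that under PBS by an interaction test in 57 of 265 members (limma, called at an adjusted p under 0.05), beside 23.5% of all 13627 genes. The interaction was below 0 in Zfp422 (-2.99), Zfp382 (-1.44), Zfp292 (-1.36), Zfp966 (-1.33), Zfp971 (-1.27) and Zfp317 (-1.23) and above 0 in Zfp771 (0.90), on the log2(FPKM + 1) scale. That of Zfp422 was lost in 8 of the 12 fits that left out 1 library, with limma adjusted p up to 0.104.

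The KO effect averaged over treatments differed between MC38 and B16 by an interaction test in 98 of 268 members, beside 31.3% of all 15655 genes. It was more positive in MC38 in Zfp966 (1.12), Zfp871 (1.06), Zfp969 (1.03), Zfp609 (1.03), Zfp760 (1.00) and Zfp971 (0.99). It was more negative in MC38 in Zfp395 (-0.63), Zfp414 (-0.46), Zfp622 (-0.44), Zfp580 (-0.40), Zfp821 (-0.33) and Zfp706 (-0.21). Of these, Zfp580 was lost in 16 and Zfp821 in 3 of the 24 fits that left out 1 library, Zfp414, Zfp580, Zfp821 and Zfp706 (-0.05, limma adjusted p = 0.614) with protein-coding genes rescaled, and Zfp414 and Zfp580 (-0.16, limma adjusted p = 0.518) with length and GC trends removed. With the B16 KO anti-PD-1 libraries left out, and so under PBS alone, Zfp871, Zfp609 and Zfp760 were still called and the other 9 were not.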

How the results depend on the processing

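No paired analysis was possible because the labels give no replicate numbers shared between groups, and the numbers used here follow accession order. Over 351 named results and 8146 alternative values, 7177 kept direction and side of the threshold, 955 lost the call and 14 reversed. Among the 14 counts of members called, 132 alternative values other than those leaving out 1 library stayed within 1.5 times and 16 moved. The cause of these changes was not tested.

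With no filter the count fell to 8 from 17 in MC38 KO against WT under anti-PD-1, to 33 from 55 averaged over treatments and to 2 from 7 for anti-PD-1 in MC38 KO. The fit of the 6 libraries compared gave 10, 2 and, for B16 under PBS, 1 against 0. The fit of all 24 libraries gave 3 for anti-PD-1 in MC38 KO and 4 for B16 under PBS. Rescaled protein-coding genes gave 44 against 29 in MC38 under PBS and 1 against 0 for the MC38 interaction. Removal of length and GC trends gave 51 against 121 in B16 under anti-PD-1, 38 against 100 averaged over treatments, 61 against 111 for anti-PD-1 in B16 KO, 20 against 57 for the B16 interaction and 1 against 0 for the MC38 interaction. Without B16 KO anti-PD-1, which also leaves the contrast under PBS alone in place of the mean of treatments, the KO effect between lines was called in 21 members against 98.

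Leaving out 1 library gave 15 to 31 called members in MC38 KO against WT under PBS, 4 to 16 under anti-PD-1, 36 to 48 averaged, 1 to 7 for anti-PD-1 in MC38 KO, 96 to 124 in B16 under anti-PD-1, 78 to 102 averaged, 86 to 110 for anti-PD-1 in B16 KO, 43 to 59 for the B16 interaction, 189 to 197 between lines and 90 to 105 for the KO effect between lines. It gave 0 with limma throughout for anti-PD-1 in WT of either line, the MC38 interaction and B16 under PBS.

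Reversed with trends removed were Zfp414 (-0.0784) and Zfp511 (-0.0296) for anti-PD-1 in B16 KO, Zfp41 (0.0595) in B16 KO against WT under anti-PD-1, Zfp106 (0.0621), Zfp292 (0.14) and Zfp41 (0.0366) averaged, Zfp871 (-0.0307) and Zfp597 (-0.0448) between lines and Zfp704 (-0.0346) in the KO effect between lines. Without B16 KO anti-PD-1 (the KO effect then under PBS alone), Zfp706 (0.0522), Zfp281 (-0.0949) and Zfp445 (-0.0626) reversed in the KO effect between lines and Zfp871 (-0.11) and Zfp597 (-0.0685) between lines.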
